A study of Arabidopsis thaliana with 3 samples.

Results

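The RNA levels of 8 genes of sulfate uptake and reduction were described in *Arabidopsis thaliana* roots. The genes were taken by locus identifier or symbol from a table of 33446 listed gene names. Of them, 5 encode sulfate transporters and 3 encode APS reductases. The transporters are SULTR1;1 (AT4G08620), SULTR1;2 (AT1G78000, listed under its other name SEL1), SULTR2;1 (AT5G10180, also named AST68), SULTR2;2 (AT1G77990, also named AST56) and SULTR3;5 (AT5G19600). The reductases are APR1 (AT4G04610), APR2 (AT1G62180) and APR3 (AT4G21990). All 8 genes were found in the table. APR2 stood there as PRH and APR3 as PRH26, which are older symbols, and APR1 was listed under the calendar date into which spreadsheet software converts that symbol. APR1 is the only annotated gene with a symbol that reads as this date. The name SEL1 belongs to SULTR1;2 and to a further gene (AT4G18520), which was listed separately under its own locus identifier.

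Roots take up sulfur from the soil as sulfate, through transporters of the SULTR family in the plasma membrane of the outer cell layers. Further members of the family load sulfate into the vessels that lead to the shoot or release it from the vacuole. Inside plastids, ATP sulfurylase activates sulfate to adenosine 5′-phosphosulfate (APS), APS reductase turns APS into sulfite, and sulfite reductase makes the sulfide that is built into cysteine. APS reductase is widely regarded as a main point of control over the flux through this chain, and several transporter and reductase genes are known to be induced when sulfate is scarce.

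The study sequenced RNA of whole roots in 3 libraries of 1 condition. The plants were of the Col-0 ecotype, were 14 days old, grew on vertical agar plates with diluted Murashige and Skoog medium in long days, and all carried the INTACT transgene, a biotin-taggable nuclear envelope protein used to purify nuclei. The transgene was driven by the constitutive 35S promoter, the labels do not say from which transgenic line the roots came, and no roots without it were measured. The values for roots were deposited as 1 column, in RPKM (mapped reads scaled by the length of the gene model and the size of the library), so that neither a comparison between conditions nor the spread between libraries could be computed and no test was run. The spacing of the low values gave a library size of about 118000000 reads. The 95% intervals of single levels below are exact Poisson intervals of the reads estimated at that depth. Those of ratios were approximated from the same reads on the log scale, and both kinds cover counting error only. In whole roots, fewer cells of a type and less RNA per cell cannot be told apart. All 12 root markers examined were listed above 1 RPKM, a level that 68.4% of the protein-coding genes also passed. The root markers ranged from 3.09 to 204 RPKM with a median of 18.1 RPKM. Of 6 markers of green tissue, 5 were above 1 RPKM, from 0.136 to 29.6 RPKM over the 6 with a median of 9.12 RPKM, and their part in the levels described here was not tested.

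The 8 genes covered a wide range of RNA levels, from the abundant reductase RNA of APR1 to the scarce transporter RNA of AST56. All 8 were above 1 RPKM, the threshold the study used for an expressed gene, which 56.0% of all listed names and 68.4% of the protein-coding genes also passed. Above 10 RPKM stood 7 of the 8, as did 28.8% of all listed names and 35.5% of the protein-coding genes. Their median level was 38.5 RPKM, against a median of 2.21 RPKM over all listed names, 4.86 RPKM over protein-coding genes and 10.5 RPKM over the names above 1 RPKM. The order of the levels was APR1, AST68, APR3, SEL1, APR2, AT5G19600, AT4G08620 and AST56. Reductases held the first, the third and the fifth place in RPKM as deposited. APR3 and SEL1 changed places when rescaled to the longest annotated transcript of each gene, if the deposited RPKM was scaled by all annotated exons together.

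**Figure D1:**
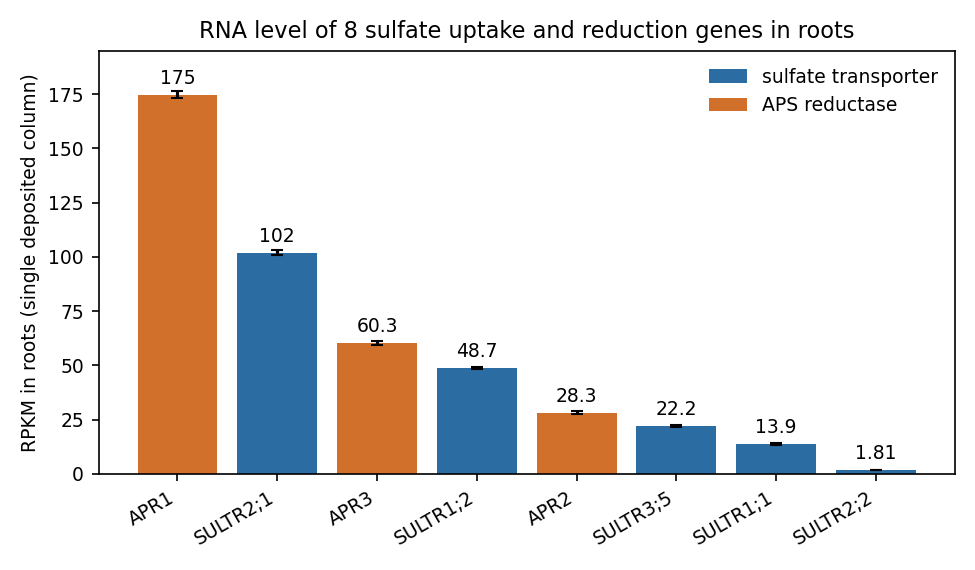
RPKM of the 8 genes in roots on a linear axis, with bars in descending order coloured by transporter or reductase and error bars for the exact 95% Poisson interval of the estimated reads. APR1 stands highest at 175 RPKM and SULTR2;2 lowest at 1.81 RPKM, and the intervals of neighbouring bars do not overlap.

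APR1 had the highest level of the 8, at 175 RPKM with a counting interval of 173 to 177 RPKM. It ranked 624 of 33446, above 97.7% of the protein-coding genes. Like the other reductases, APR1 acts in plastids and takes its electrons from glutathione. AST68 followed at 102 RPKM (101 to 103 RPKM) and ranked 1155. AST68 is a low-affinity transporter of the vascular tissue, known for its part in moving sulfate from root to shoot. APR1 exceeded it 1.71-fold, with a counting interval of 1.69 to 1.74.

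APR3 stood at 60.3 RPKM (59.3 to 61.4 RPKM) and ranked 1980, and AST68 exceeded it 1.69-fold (1.66 to 1.73). SEL1 was next at 48.7 RPKM (48.1 to 49.4 RPKM) and ranked 2478. SEL1 is a high-affinity transporter of the root epidermis and cortex, and mutants in it were found by their resistance to selenate, a toxic analogue of sulfate. APR3 exceeded SEL1 1.24-fold (1.21 to 1.26), the smallest step in the order. This step may depend on the length used for SEL1, which has 7 annotated transcripts whose exons together span 4193 bp, while the longest single transcript spans 3185 bp. Rescaled to the longest transcript of each gene, SEL1 was the higher and the log2 ratio of APR3 over SEL1 was -0.056 in place of 0.31. The rescaling, here and below, assumes that the deposited RPKM was scaled by the union of annotated exons. Which length was used is not given in the sources used here.

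APR2 was listed at 28.3 RPKM (27.6 to 29.0 RPKM) and ranked 4217, so that SEL1 exceeded it 1.72-fold (1.68 to 1.77). Rescaled to the longest transcript of each gene, the log2 ratio of SEL1 over APR2 was 1.18 in place of 0.785. APR2 is the reductase at which natural variation in sulfate content was mapped among Arabidopsis accessions. AT5G19600, the SULTR3 member, stood at 22.2 RPKM (21.7 to 22.8 RPKM) and ranked 5311. Its protein is known to raise the sulfate uptake of AST68 when both are made in yeast. APR2 exceeded it 1.27-fold (1.23 to 1.32), and AST68 exceeded it 4.59-fold (4.47 to 4.72).

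The other high-affinity uptake transporter, AT4G08620, was listed at 13.9 RPKM (13.5 to 14.3 RPKM) and ranked 7771. It shares the epidermis and cortex with SEL1 and is best known for its strong induction in sulfate-starved roots. AT5G19600 exceeded it 1.60-fold (1.54 to 1.66). AST56, a low-affinity transporter of vascular tissue, was the last at 1.81 RPKM (1.66 to 1.98 RPKM) and ranked 17338, above 36.5% of the protein-coding genes. Its level rested on about 499 reads, against 3867 to 39921 reads for the other 7 genes. The step from AT4G08620 down to AST56 was 7.67-fold (6.99 to 8.42), the widest in the order, and the whole range from APR1 to AST56 was 96.6-fold (88.4 to 105). No counting interval of a step between neighbours included 1, but whether neighbours differ beyond the spread between libraries could not be judged from a single column.

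**Figure D2:**
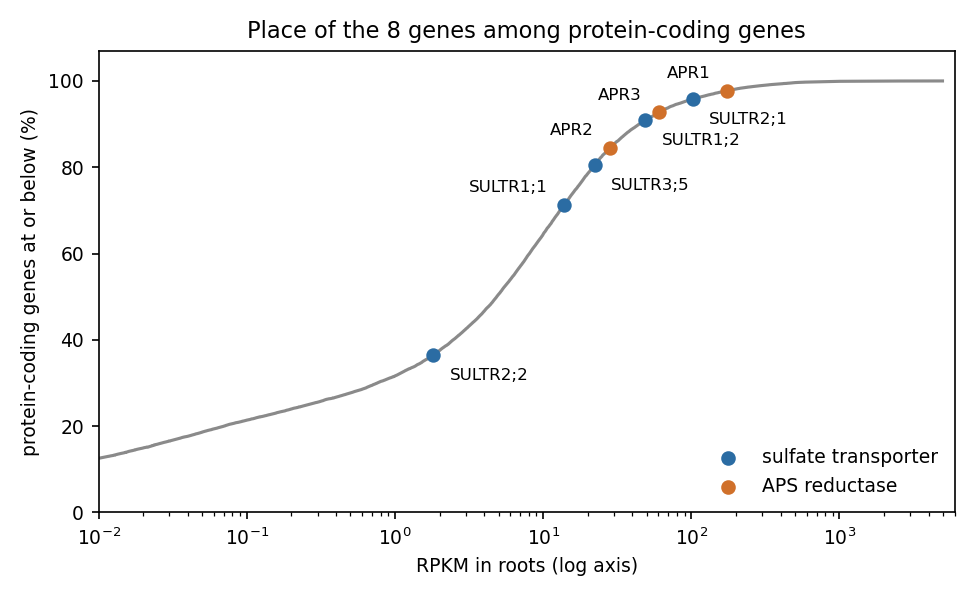
Share of protein-coding genes (%) at or below each RPKM on a log axis, drawn as a line, with the 8 genes marked as points by role. APR1 lies above 97.7% of the protein-coding genes and SULTR2;2 above 36.5%, and the other 6 lie between 71.3% and 95.8%.

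Within each pair or trio of related genes, a single member made up most of the RNA. APR1 accounted for 66.4% of the summed RPKM of the reductases, APR3 for 22.9% and APR2 for 10.7%. APR1 exceeded APR3 2.90-fold (2.84 to 2.96) and APR2 6.18-fold (6.03 to 6.34). Among the epidermal uptake transporters, SEL1 exceeded AT4G08620 3.51-fold (3.39 to 3.63). If the deposited RPKM used the union of exons of SEL1 (4193 bp), this ratio would be larger with SEL1 rescaled to its longest transcript (3185 bp). The vascular SULTR2 pair lay farthest apart, with AST68 56.3-fold above AST56 (51.5 to 61.5). The summed level of the 3 reductases was 263 RPKM and that of the 5 transporters 189 RPKM, with medians of 60.3 and 22.2 RPKM.

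Reads of such related genes could have been confused, so the reference sequence was searched for shared stretches. The reads were 61 bases long, and of the 1545 to 3653 windows of that length in the exons of each gene, none of any of the 8 genes occurred elsewhere in the TAIR10.1 genome. The coding sequences were 82.4% identical between APR1 and APR3, 75.7% between APR1 and APR2 and 76.4% between APR2 and APR3. SEL1 and AT4G08620 were 70.8% identical and AST68 and AST56 66.7%, and the other transporter pairs lay between 58.4% and 63.1%. The longest run of bases that any pair shared without a mismatch, 41 bp, was found in APR1 from coding position 748 and in APR3 from coding position 724, the first base of the start codon being position 1. It is shown because it is the longest exact match found between these coding sequences.
APR1 and APR3 shared run: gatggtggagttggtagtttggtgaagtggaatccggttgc
This run is shorter than a read. The search allowed no mismatches and did not cover windows across exon junctions, so near matches of a read were not examined. The transporters had 634 to 677 codons before the stop, and the reductases 454 to 465.

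The positions and neighbours of the 8 genes in TAIR10.1 bear on how their reads could be counted. APR1 lies on the plus strand at chr4:2324878-2327064, AT4G08620 on the plus strand at chr4:5500313-5506313 and APR3 on the minus strand at chr4:11657008-11659167. AST68 lies on the plus strand at chr5:3193017-3197136 and AT5G19600 on the minus strand at chr5:6612815-6617047. APR2 lies on the minus strand at chr1:22975530-22977885. AST56, on the minus strand at chr1:29317767-29323352, and SEL1, on the plus strand at chr1:29327515-29333220, are neighbouring transporter genes 4162 bp apart, and SEL1 was listed at 48.7 RPKM where AST56 was listed at 1.81 RPKM. Whether counting used the strand is not given in the sources used here, so reads from overlapping genes of opposite strands may not have been told apart. AST56 shares 663 bp of exon with an opposite-strand noncoding RNA gene (AT1G77992), which was listed at 0. APR3 shares 27 bp of exon with ATG8A, an autophagy gene listed at 80.3 RPKM, and APR1 shares 21 bp with AT4G04614, listed at 15.5 RPKM. APR2 shares 225 bp with AT1G62170, listed at 0.00557 RPKM, and 782 bp with AT1G08477, to which no listed name was assigned. Whether AT1G08477 was in the annotation used for counting is not given in the sources used here. The values of these 4 genes are uncertain to the extent that such reads were mixed or left out of the count. Reads left out would lower the listed values, and AST56 and APR2 have the longest shared stretches. How such reads were handled is not given in the sources used here.

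Set beside the rest of its family of 14 genes, AST68 had the highest level and AST56 among the lowest. The family summed to 299 RPKM, of which AST68 made up 34.1% and SEL1 16.3%. By estimated reads, SEL1 made up 25.2% of the family. These reads were computed back from RPKM with the union of exons as the assumed length. SEL1 had 24114 estimated reads at that length and 18317 at its longest transcript, so this share is no check that is free of length. The third place was held by SULTR4;1 at 44.9 RPKM (15.0%), a transporter that releases sulfate from the vacuole and no member of the 8. SEL1 exceeded it 1.08-fold (1.06 to 1.11). That ratio would also be larger with SEL1 rescaled to its longest transcript, if the deposited RPKM used the union of exons. AT5G19600 made up 7.43% of the family sum, AT4G08620 4.64% and AST56 0.605%. The third SULTR1 gene, a phloem transporter (AT1G22150), stood at 17.3 RPKM and exceeded AT4G08620 1.24-fold. Over the family, 12 of 14 genes were above 1 RPKM and 8 above 10 RPKM, against 68.4% and 35.5% of the protein-coding genes. The 9 genes that are not among the 8 had a median of 5.84 RPKM and summed to 110 RPKM. Among the 5 SULTR3 genes, AT5G19600 was the highest, and the others ranged from 0.643 to 17.2 RPKM. Only 2 genes of the family were below 1 RPKM, both of the SULTR3 group, at 0.707 and 0.643 RPKM. The SULTR5 genes, which transport molybdate, stood at 18.7 and 2.92 RPKM.

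**Figure D3:**
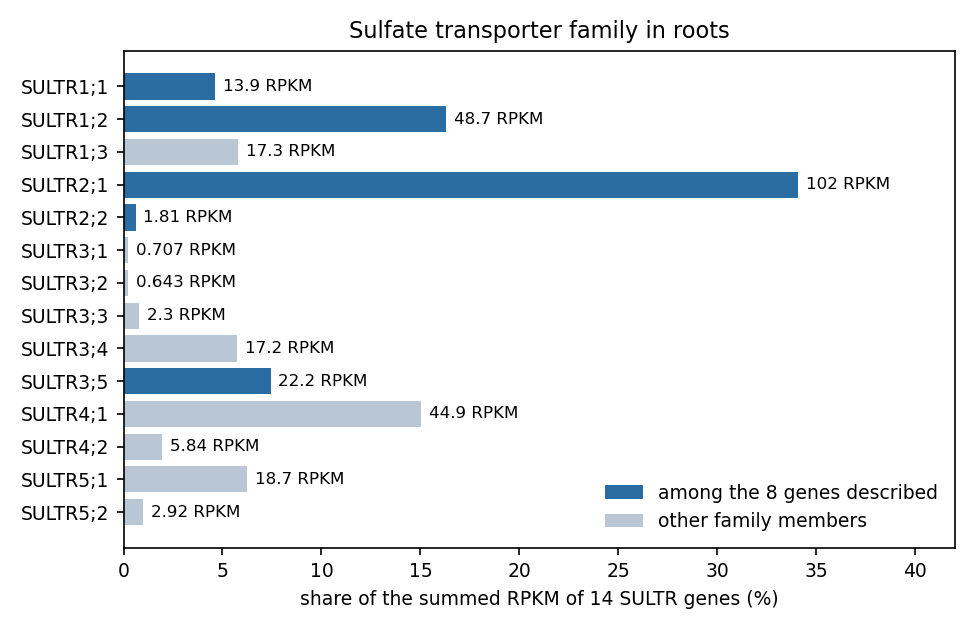
Share of each of the 14 SULTR genes in their summed RPKM (%, linear axis), with its RPKM beside each bar and the 5 described here set apart by colour from the other 9. SULTR2;1 has the largest share (34.1%), followed by SULTR1;2 (16.3%) and SULTR4;1 (15.0%).

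AST68 is the member with a site for miR395, the microRNA of sulfate starvation, which is known to lower the RNA of AST68 and of ATP sulfurylases. The 6 annotated MIR395 loci, all on chromosome 1, give 2 mature sequences of 21 nt with the same seed, bases 2 to 8, shown in capitals. They are printed because the site in AST68 was judged against them. The first comes from loci A, D and E and the second from loci B, C and F, with locus A at chr1:9363206-9363226 on the minus strand and locus B at chr1:9364540-9364560 on the plus strand in TAIR10.1.
miR395a: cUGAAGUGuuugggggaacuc
miR395b: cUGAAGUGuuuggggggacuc
The best site of AST68 lay in its coding sequence at chr5:3193268-3193288 on the plus strand and paired with miR395a at 18 of 21 positions by Watson-Crick pairs, with 1 G:U pair among the 3 others. Sites of the same kind were found in the coding sequences of the ATP sulfurylases ATPS1 (chr3:8113164-8113184, plus strand, 18 of 21), ATPS3 (chr4:8414958-8414978, minus strand, 18 of 21) and ATPS4 (chr5:17591121-17591141, minus strand, 19 of 21). The capitals mark the bases opposite the seed, and the window of AST56 at chr1:29323219-29323239, minus strand, is set beside them for contrast.
AST68: aagttctcccaaaCACTTCAa
ATPS1: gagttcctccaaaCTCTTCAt
ATPS3: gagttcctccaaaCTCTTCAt
ATPS4: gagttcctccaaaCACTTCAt
AST56: gttccctatcacaCACTTCAa
The sites of ATPS1 and ATPS3 were the same over all 21 bases. ATPS2 was searched as well, and its best window paired at only 13 of 21 positions with either miR395 sequence. AST56 had the full complement of the seed but paired at only 13 of 21 positions (with miR395b). The best window of each of the other 6 genes paired at 12 or 13 positions, so that AST68 alone among the 8 stood apart in this search. The MIR395 loci were barely read, with 4 listed at 0 and the others at 0.0851 and 0.0896 RPKM, 1 estimated read each. These are reads of precursors of 93 to 112 bp in a library for longer RNA, and the mature microRNA was not measured. AST68 (102 RPKM), ATPS1 (279 RPKM) and ATPS4 (155 RPKM) were among the higher genes of the pathway and ATPS3 (14.8 RPKM) was lower, so that genes with such a site spanned more than a 10-fold range. A pairing is a description of the sequence, and cleavage at these sites was not measured.

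A search of the 250 bases upstream of each gene for GAGAC, the core of a sulfur-responsive element described in the promoter of AT4G08620, found it on neither strand in any of the 8. It was found in 13 of 53 other genes of the pathway list (24.5%) and in 7064 of 27431 protein-coding genes (25.8%). The 53 include the MIR395 loci, which are not protein-coding, and MIR395A, MIR395B, MIR395C and MIR395F were among the 13 with the motif. The absence concerns these 5 letters in this window only. Whether the element described for AT4G08620 lies within 250 bases of the gene was not checked, so its absence there cannot be read from this search.

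Along the chain from sulfate to cysteine, the steps on either side of the reductases had RNA levels of the same order as APR1. ATPS1, the highest ATP sulfurylase gene, exceeded APR1 1.59-fold (1.57 to 1.61). The single sulfite reductase gene SIR stood at 183 RPKM and exceeded APR1 1.05-fold (1.04 to 1.06). The 3 listed ATP sulfurylase genes summed to 448 RPKM, the reductases to 263 RPKM and SIR to 183 RPKM. ATPS2 shares its names with other genes and its level was not analysed here. The 4 APR-like genes, named for their resemblance to the reductases, stood at 5.42 to 32.2 RPKM, and APR2 at 28.3 RPKM lay within their range while APR1 and APR3 lay above it. APS kinase draws on the same APS as the reductases and sends it to sulfated metabolites such as glucosinolates. Its 4 genes summed to 274 RPKM, led by APK1 at 143 RPKM and APK2 at 117 RPKM.

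Downstream, the 5 serine acetyltransferase genes, which make the carbon skeleton of cysteine, summed to 296 RPKM with a highest gene at 115 RPKM. The 7 genes of the O-acetylserine(thiol)lyase family, whose main members join that skeleton to sulfide, summed to 297 RPKM, led by the cytosolic OASA1 at 109 RPKM. In the same family DES1, which degrades cysteine, was listed at 0. GSH1 and GSH2, which make glutathione from cysteine, stood at 50.6 and 55.8 RPKM. Over the 46 listed genes of the pathway list outside the 8 and the MIR395 loci, 43 were above 1 RPKM. That is 93.5%, against 68.4% of the protein-coding genes. The median of the 46 was 32.7 RPKM, against 38.5 RPKM for the 8.

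Genes known to rise under sulfur limitation were all read in these roots. All 9 on the list were above 1 RPKM. So were 68.4% of the protein-coding genes and 43 of the 46 pathway genes counted above, which include these 9. The median of the 9 was 57.6 RPKM and their sum 769 RPKM. LSU2 was the highest at 290 RPKM, LSU4 stood at 112 RPKM and SDI1, which restrains glucosinolate synthesis, at 111 RPKM. BGLU28, a beta-glucosidase gene, was the lowest at 9.23 RPKM, below AT4G08620. The regulator SLIM1, a transcription factor of the sulfur limitation response, stood at 11.5 RPKM, and HY5, a light-response factor known to bind APR promoters, at 35.9 RPKM. Roots with more or less sulfate were not compared, so these are levels in a single condition and not responses.

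**Figure D4:**
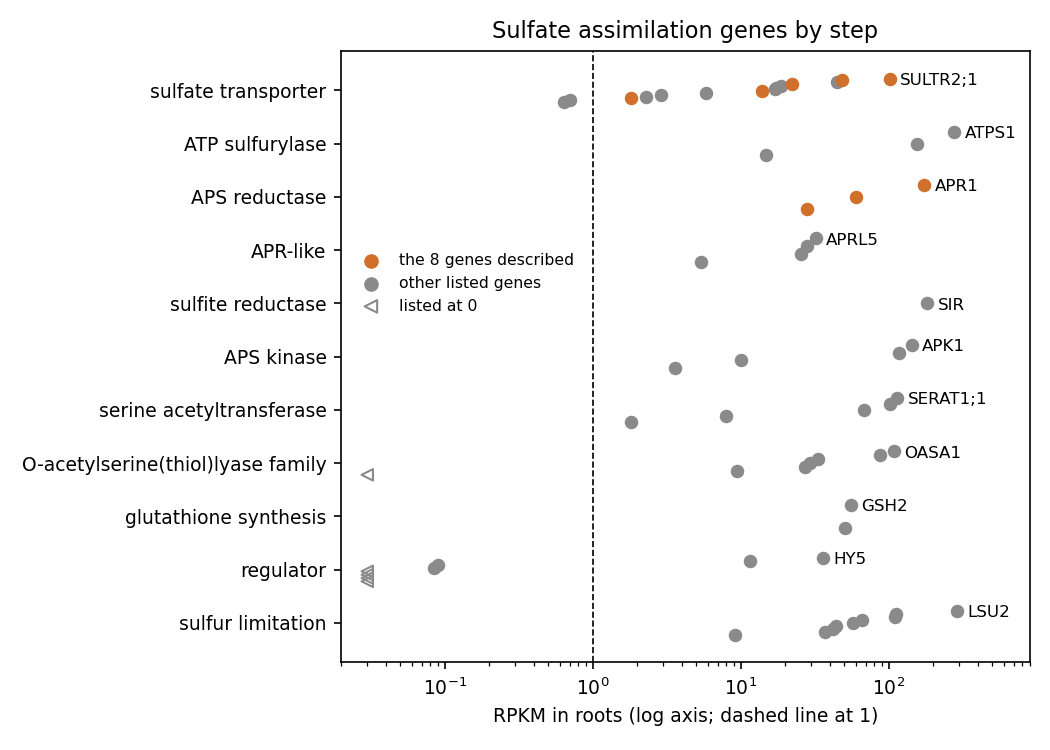
RPKM of the genes of each step of sulfate assimilation on a log axis, 1 row a step, with the 8 genes in orange, other listed genes in grey, genes listed at 0 as open triangles at the left edge, the highest gene of each row named and a dashed line at 1 RPKM. APR1 (175 RPKM) lies between the sulfite reductase gene SIR (183 RPKM) and the highest APS kinase gene APK1 (143 RPKM), and below ATPS1 (279 RPKM).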

How the data were processed

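The authors extracted total root RNA, prepared libraries with a NEBNext kit and sequenced single-end reads of 61 bases. RPKM values for roots were deposited in a single column, whose header names no library. Per the labels, TAIR10, STAR, HTSeq and edgeR were used, while the paper's methods name TopHat2 after the download of leaf reads and do not say whether it was also used for roots. Software versions, the annotation release, use of strand and whether or how the libraries were combined are not given in the sources used here. RPKM depends on the gene length used, which is not given in the sources used here.

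Names in the table were assigned to genes with the RefSeq annotation of TAIR10.1, which supplied lengths, positions and sequences. Of 33446 names, 32623 matched 1 gene: 23267 by locus identifier, 6473 by symbol, 5 by a date read as a symbol, 2635 by synonym and 243 because the other owners of a shared name were listed elsewhere. Exon length was the union of annotated exons. Depth was estimated from low RPKM values, of which 77.0% of 3115 between 0.5 and 12 reads lay within 0.05 of a whole read (10% by chance), and the procedure was tested on simulated data. The depth may be that of a pool or of a single library. MicroRNA sites were the windows with most Watson-Crick pairs.

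The text names the 8 genes, every gene of the pathway list by step, overlapping or neighbouring genes and marker genes. The members and lists were chosen with earlier results of these data known. Alternatives were other units, backgrounds, thresholds, lengths, pseudocounts and family members. Python 3.11.15 with numpy 2.4.6, pandas 2.3.3, scipy 1.17.1, Biopython 1.88 and matplotlib 3.10.9 was used.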

Additional observations from a re-analysis of the deposited data

How the results depend on the processing

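No paired analysis was possible because the values stand in a single column of a single condition, and for the same reason no library could be left out. Over the 8 genes, the median of the shares of genes below each was 90.0% among all listed names, 87.7% among protein-coding genes and 82.1% among names above 1 RPKM. Rescaled to the fixed sum of TPM, the median level was 63.3 TPM. All 8 genes passed 0.5 RPKM and 7 passed 2 RPKM. SULTR2;1 made up 36.7% of its family without the SULTR5 genes, 32.2% by estimated reads (where SULTR1;2 made up 25.2% in place of 16.3%) and, in an alternative chosen after seeing the data, 40.7% without SULTR1;2. APR1 made up 66.8% of the reductases by estimated reads. Shares by estimated reads rest on the union of exons as the assumed length, from which the reads were computed back. The APS reductase step was 60.3 RPKM as a median in place of a sum. Of 7 neighbouring pairs, 6 kept their order when rescaled to the longest annotated transcript, where the log2 ratio of APR3 over SULTR1;2 was -0.056, and 7 kept it with a pseudocount of 0.1 or 1. That rescaling changed the length of SULTR1;2 from 4193 to 3185 bp and of APR3 from 1827 to 1785 bp, and which length the authors used is not given in the sources used here. The rescaled order therefore holds only if the deposited RPKM used the union of exons. Depth limits the precision most for SULTR2;2, with a counting error of 4.48%.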
